A study of Homo sapiens with 12 samples.

Results

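The 50 genes described here make the proteins that license, start and carry out DNA replication, supply its deoxynucleotides and drive entry into S phase. They were chosen by symbol from textbook roles, and each of the 50 symbols matched 1 of the 58051 Ensembl genes in the count files. FaDu (hypopharyngeal) and Cal27 (tongue) are squamous cell carcinoma lines of the head and neck. From each parental line an afatinib-resistant (AfaR) and an erlotinib-resistant (ErlR) model had been raised by stepwise increases of the drug. Erlotinib inhibits the EGF receptor and afatinib inhibits several receptors of the ERBB family, so the comparisons ask how the replication program stands in cells that grow despite such drugs. Poly(A) RNA of the 6 groups was sequenced in 2 libraries each, labelled as biological replicates, 12 in all. The 6 groups were FaDu parental, FaDu AfaR, FaDu ErlR, Cal27 parental, Cal27 AfaR and Cal27 ErlR, all labelled as wild-type tumor cells of 1 batch. By the study's methods the resistant cells were kept under drug and then grown for a day without it before experiments. FaDu cells were kept in EMEM and Cal27 cells in DMEM, so the medium cannot be told apart from the line. Whether a model was selected more than once is not given, so the 2 libraries of a group cannot be taken as independent selections.

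Origins are licensed in G1 when the origin recognition complex, CDC6 and CDT1 load the MCM2 to MCM7 helicase onto DNA. At the start of S phase CDC45 and the GINS complex join the helicase, and primase and the replicative polymerases follow with the PCNA clamp. Many of these genes are transcribed by E2F factors once cyclin-dependent kinases have inactivated the retinoblastoma protein, and their messages peak around the G1/S boundary. In bulk RNA, fewer cells in S phase and less of each message per cell cannot be told apart.

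Reads counted on genes numbered from 16334937 to 23399259 per library. Levels are given as CPM (counts scaled to a common library size) after TMM normalization over the 12 libraries, and groups were compared on the raw counts by edgeR's quasi-likelihood test with Benjamini-Hochberg adjustment over all genes tested. A gene was called at an adjusted p under 0.05. Each of the 50 genes passed the filter on low counts in all comparisons and had at least 57 counts in each library. Squamous markers (KRT5, KRT14, TP63 and others) were above 1 CPM in both libraries of each group for 8 of 8 genes, except for 7 of 8 in Cal27 AfaR, and 5 leukocyte and endothelial markers summed to at most 9.22 CPM in a library. In 2 groups the libraries stood apart. Replicate 1 of Cal27 AfaR was below replicate 2 for 50 of the 50 genes, by a median of 0.41 on the log2 scale, and replicate 1 of Cal27 parental was above replicate 2 for 47 of 50, by a median of 0.23. Counts that rest on these libraries are therefore given with and without them.

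The promoters of these genes are rich in the letters that E2F factors bind. RefSeq promoter windows on GRCh38.p14, from 250 bases before to 50 bases after a transcription start, were at hand for 45 of the 50 genes, in 60 windows. The E2F cores searched, on either strand, were TTGGCGC, the variant TTCCCGC, a further variant TTCGCGC and the fourth one, TTGCCGC, and neighbouring cores can overlap. A core was found in 37 of the 60 windows (61.7%) and in 13.0% of all 35116 windows of this length. A CCAAT box was in 58.3% of the 60 windows and in 34.6% of all. The cell cycle homology element TTTGAA was in 1 of the 60 (1.67%) and in 15.2% of all. A match of letters is not a bound site. The 6 windows below belong to genes around which the results turn: CDC6, MCM6 and DNMT1 fell in both AfaR models, and TYMS, CCNA2 and E2F1 rose in Cal27 AfaR. They are read 5′ to 3′ on the strand of the gene, with E2F cores in capitals, and lie at chr17:40287629-40287928 (CDC6, plus strand), chr2:135876394-135876693 (MCM6, minus strand), chr19:10194904-10195203 (DNMT1, minus strand), chr18:657403-657702 (TYMS, plus strand), chr4:121823834-121824133 (CCNA2, minus strand) and chr20:33686336-33686635 (E2F1, minus strand).
CDC6: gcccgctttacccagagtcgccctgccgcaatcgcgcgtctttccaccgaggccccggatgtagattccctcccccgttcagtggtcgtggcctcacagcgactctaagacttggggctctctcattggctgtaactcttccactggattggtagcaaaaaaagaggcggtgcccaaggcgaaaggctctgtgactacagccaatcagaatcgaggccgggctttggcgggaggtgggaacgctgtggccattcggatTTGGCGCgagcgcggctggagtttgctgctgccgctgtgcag
MCM6: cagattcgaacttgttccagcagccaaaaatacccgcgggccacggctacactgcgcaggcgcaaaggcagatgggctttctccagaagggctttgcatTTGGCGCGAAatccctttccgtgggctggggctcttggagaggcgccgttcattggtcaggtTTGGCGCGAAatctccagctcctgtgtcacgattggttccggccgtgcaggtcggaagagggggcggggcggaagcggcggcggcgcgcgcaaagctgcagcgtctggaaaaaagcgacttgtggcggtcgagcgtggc
DNMT1: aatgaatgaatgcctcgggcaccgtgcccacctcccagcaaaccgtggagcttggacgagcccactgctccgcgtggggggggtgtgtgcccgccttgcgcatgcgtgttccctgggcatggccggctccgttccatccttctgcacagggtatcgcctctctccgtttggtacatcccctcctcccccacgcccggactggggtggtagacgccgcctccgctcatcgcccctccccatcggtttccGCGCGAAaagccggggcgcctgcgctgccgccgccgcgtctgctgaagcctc
TYMS: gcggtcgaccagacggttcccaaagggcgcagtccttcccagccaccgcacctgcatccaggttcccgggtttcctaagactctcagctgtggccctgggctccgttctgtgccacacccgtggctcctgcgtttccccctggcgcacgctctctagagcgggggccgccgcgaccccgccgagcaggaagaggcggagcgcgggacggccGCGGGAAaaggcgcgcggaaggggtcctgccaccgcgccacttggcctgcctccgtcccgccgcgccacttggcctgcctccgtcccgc
CCNA2: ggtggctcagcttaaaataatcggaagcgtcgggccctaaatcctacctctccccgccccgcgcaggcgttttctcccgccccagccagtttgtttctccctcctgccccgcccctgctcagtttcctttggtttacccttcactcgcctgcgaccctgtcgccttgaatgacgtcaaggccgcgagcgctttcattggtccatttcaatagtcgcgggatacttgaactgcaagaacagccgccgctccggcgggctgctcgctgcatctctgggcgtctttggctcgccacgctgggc
E2F1: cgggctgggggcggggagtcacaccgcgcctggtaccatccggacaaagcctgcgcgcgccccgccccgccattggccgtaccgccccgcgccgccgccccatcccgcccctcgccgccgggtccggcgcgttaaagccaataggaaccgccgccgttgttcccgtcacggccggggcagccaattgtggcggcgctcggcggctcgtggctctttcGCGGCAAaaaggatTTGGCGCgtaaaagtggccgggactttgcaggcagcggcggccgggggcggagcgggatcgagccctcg
An E2F core of the letters searched stood in 5 of these 6 windows. CCNA2 is the exception, and its window holds a CCAAT box. Other forms of an E2F site or of the cell cycle homology element were not searched. Among these 6 the core stood in CDC6, MCM6 and DNMT1, which fell in Cal27 AfaR, and in TYMS and E2F1, which rose there. Whether the core goes with the direction of change was not tested.

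More of the replication genes were called lower than higher in the AfaR model of each line, and few were called in the ErlR models. In FaDu AfaR 16 of the 50 genes were lower and 0 were higher than in parental cells, where 7.49% of all genes tested were called lower and 10.4% higher. Their median log2 fold change was -0.32. In Cal27 AfaR 24 genes were lower and 3 higher, with a median of -0.48, against 18.2% lower and 19.5% higher among all genes. FaDu ErlR had 1 gene lower and 0 higher (1.60% and 2.58% of all genes) and a median of -0.13. When the libraries were scaled to the ERCC spike-ins, 17 of the 50 genes were higher and their median was 0.37. That scaling raised the median of all genes there by 0.49 and called 5747 of all 15092 genes in either direction. Cal27 ErlR had 8 genes higher and 1 lower and a median of 0.15, and the share called higher was close to the 12.3% of all genes (15.3% were called lower). At a log2 fold change over 1 in size, 4 genes were lower (8.06% of all genes) and 1 higher (11.5%) in Cal27 AfaR. In Cal27 ErlR 1 gene was higher (3.56%) and 0 were lower (9.92%). In FaDu AfaR 0 genes were past this size, against 0.954% of all genes lower and 6.48% higher, and in FaDu ErlR 0 genes, against 0.504% and 1.54%. In all 4 comparisons the median over all genes lay within 0.03 of 0.

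**Figure D1:**
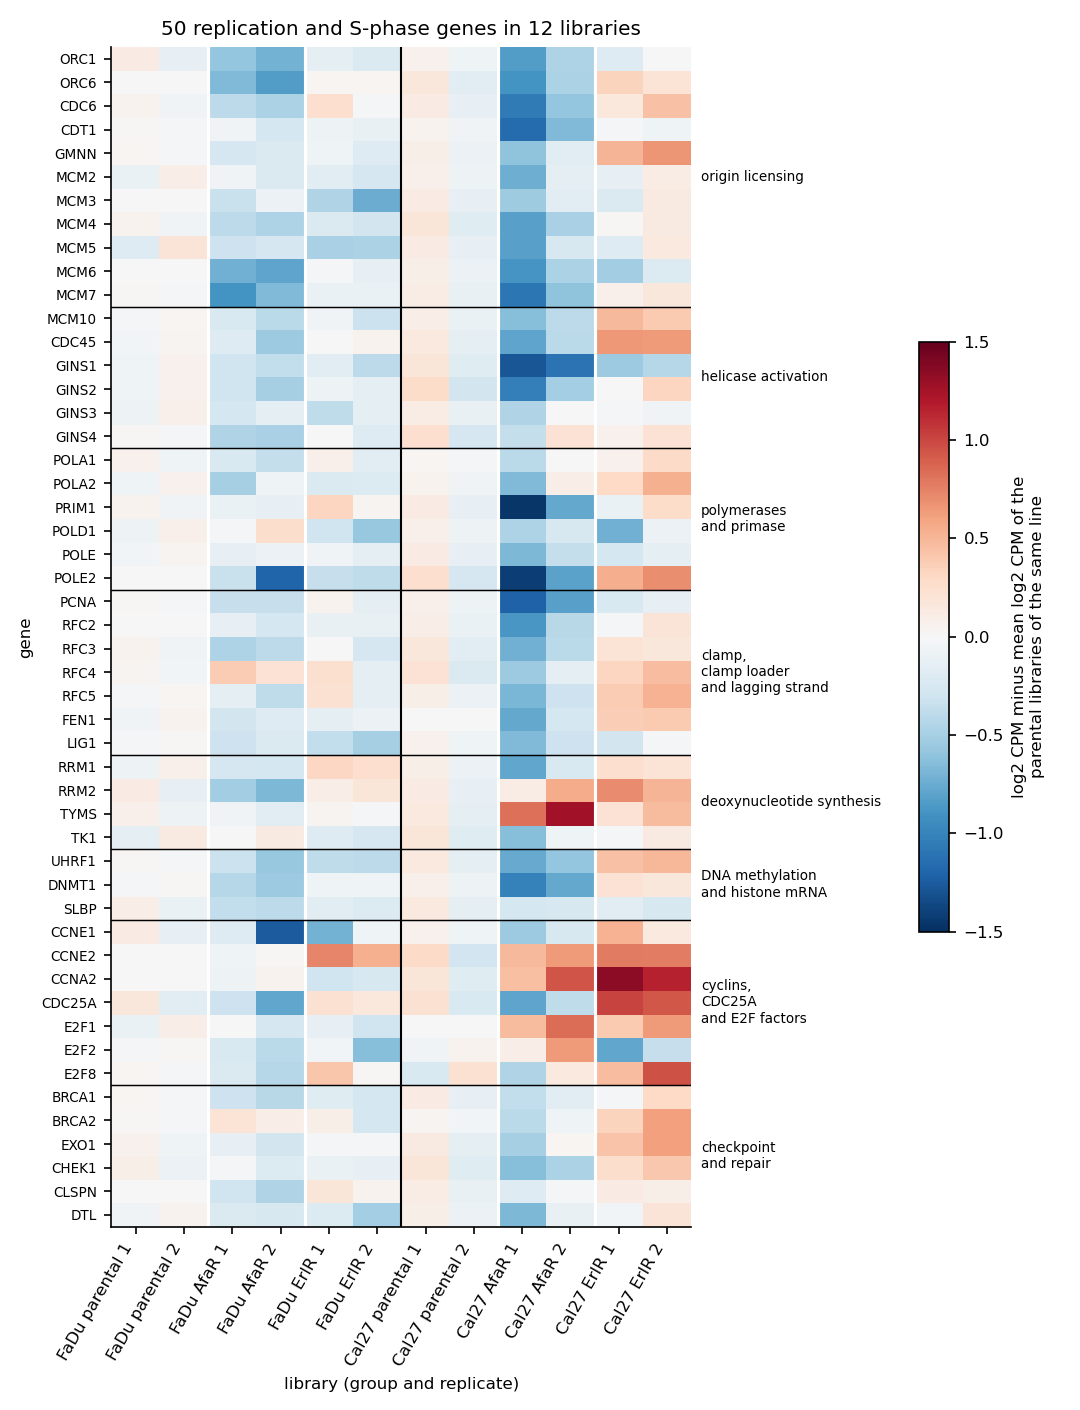
Each row is 1 of the 50 genes, grouped by role, and each column 1 of the 12 libraries; color gives the log2 CPM minus the mean log2 CPM of the 2 parental libraries of the same line. Blue (lower) fills most of the AfaR columns of both lines, deepest in replicate 1 of Cal27 AfaR, while the Cal27 ErlR columns hold more red (higher), with CCNA2 and CDC25A the strongest.

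The fall in FaDu AfaR was modest in size, and the number of calls depended on single libraries, as it did over all genes. Both AfaR libraries were below both parental libraries for 39 of the 50 genes (31.2% of all genes) and above them for 2 (33.8%), but with 1 library left out the number of genes called lower ranged from 2 (without parental replicate 1) to 16, with 5 without parental replicate 2 and 3 without AfaR replicate 2. MCM6 and MCM7 were called lower in each of these fits. Scaling to the ERCC spike-ins raised the median of all genes by 0.18 and called 2313 of all 15092 genes, beside 2694 under TMM. It left 3 of the 50 genes lower (ORC6, MCM6 and MCM7), and upper-quartile scaling left 9. In Cal27 AfaR the count fell to 9 genes called (6 lower, 3 higher) without AfaR replicate 1 and to 11 without parental replicate 1, and 35 genes had both AfaR libraries below both parental libraries (36.0% of all genes) and 5 above (36.1%). Without AfaR replicate 1, and likewise without parental replicate 1, the share of the 50 genes called was no larger than that of all genes. CDT1, MCM7, GINS1, PRIM1, PCNA and DNMT1 were lower and TYMS higher in each of the 4 fits with 1 library left out. In Cal27 ErlR the 9 calls fell to 2 without ErlR replicate 1 and to 3 without parental replicate 2, and CCNA2 and CDC25A were higher in each of the 4 fits. In Cal27 ErlR 26 genes had both resistant libraries above both parental ones (34.0% of all genes) and 7 below (33.4%). In FaDu ErlR the number of calls was 0 or 1, and 30 genes had both libraries below (25.9%) and 4 above (27.7%).

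Licensing factors had lower values in the AfaR models. Of the 11 genes, 6 fell in FaDu AfaR (7.49% of all genes) and 7 in Cal27 AfaR (18.2%), and 0 rose (10.4% and 19.5%). A negative log2 fold change was found for 11 of 11 in each AfaR model, except that MCM2 in FaDu was at 0.02 under ERCC scaling. The median log2 fold change of all genes was -0.00 in both models. With 1 library left out, the AfaR fits called from 2 to 5 of the 11 lower for FaDu and from 2 to 10 for Cal27, and ERCC scaling left 3 in FaDu. MCM7, a subunit of the helicase ring encoded at chromosome 7, 100092728 to 100101940, had 694 and 676 CPM in the FaDu parental libraries, 367 and 433 in AfaR and 641 and 639 in ErlR. In Cal27 it had 615 and 527 CPM in parental, 269 and 374 in AfaR and 599.8 and 639 in ErlR cells. The AfaR libraries were below those of the other groups of the line without overlap. The log2 fold change of MCM7 against parental cells was -0.80 in FaDu AfaR (standard error 0.109, adjusted p = 0.00398), a 1.74-fold lower level, and -0.83 in Cal27 AfaR (standard error 0.172, adjusted p = 0.00489).

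MCM6, another subunit of the ring, fell in FaDu from 281 and 282 CPM in parental to 171 and 163 in AfaR cells (log2 fold change -0.77, adjusted p = 0.00312), and stood at 277 and 259 CPM in ErlR cells. In Cal27 it fell from 203 and 181 to 104 and 138 CPM in AfaR cells (-0.66, adjusted p = 0.0128), and had 134 and 166 CPM in ErlR cells. ORC6, a small subunit of the origin recognition complex, had 60.7 and 61.1 CPM in FaDu parental cells, 38.4 and 34.2 in AfaR (-0.77, adjusted p = 0.00556) and 61.9 and 62.4 in ErlR. Without FaDu parental replicate 1 the adjusted p of ORC6 was 0.0531. In both genes the FaDu AfaR libraries stood alone as the low ones of the line. ORC1, the ATPase of the same complex, had log2 fold changes of -0.67 in FaDu AfaR and -0.63 in Cal27 AfaR, and MCM4 fell by 0.45 and 0.65. In FaDu the ORC1 call was lost without parental replicate 1 (adjusted p = 0.113), without AfaR replicate 2 (0.0567) and under ERCC scaling (0.0630), and the MCM4 call in these 3 settings and without parental replicate 2 (from 0.0633 to 0.259). In Cal27 the calls of ORC1, ORC6, MCM4 and MCM6 were all lost without parental replicate 1 (from 0.0608 to 0.110) and without AfaR replicate 1 (from 0.102 to 0.131).

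CDC6, the loader that ORC recruits, had 168 and 157 CPM in FaDu parental, 124 and 117 in AfaR and 193 and 159.7 in ErlR cells. In Cal27 the values were 109 and 92.2 CPM in parental, 48.2 and 66.9 in AfaR and 112 and 136 in ErlR cells. CDC6 was thus lowest in AfaR libraries of each line. Its log2 fold change was -0.44 in FaDu AfaR (adjusted p = 0.0348) and -0.80 in Cal27 AfaR (adjusted p = 0.00711). The FaDu call was lost in each fit that left out 1 library (adjusted p from 0.0520 to 0.223) and under upper-quartile (0.0660) and ERCC scaling (0.336). The Cal27 call was lost without AfaR replicate 1 (-0.59, adjusted p = 0.0665).

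CDT1, the partner of CDC6 in loading, went from 92.6 and 86.3 CPM in Cal27 parental to 40.1 and 56.5 in AfaR and 88.1 and 85.8 in ErlR cells. In FaDu it had 89.3 and 87.7 CPM in parental, 85.0 and 73.8 in AfaR and 83.8 and 82.0 in ErlR cells. The fall of CDT1 in Cal27 AfaR (-0.89, adjusted p = 0.00279) was larger than the difference in FaDu AfaR (-0.18), with a difference between the lines of -0.73 (standard error 0.206, adjusted p = 0.0274 in the fit of all 12 libraries). Geminin (GMNN), the protein that holds CDT1 inactive after S phase begins, rose in Cal27 ErlR from 49.0 and 43.5 to 65.9 and 73.1 CPM (0.56, adjusted p = 0.0309), a call lost without parental replicate 2 or either ErlR library (from 0.0623 to 0.144). MCM2, another ring subunit, had 459 and 526 CPM in FaDu parental, 473 and 422 in AfaR and 439.9 and 412 in ErlR cells, and in Cal27 299 and 268, 171 and 255, and 260.0 and 305 CPM in the same order. It was called in none of the 4 resistant models, with log2 fold changes of -0.16, -0.22, -0.41 and -0.03 in FaDu AfaR, FaDu ErlR, Cal27 AfaR and Cal27 ErlR. MCM3 had 299 and 303 CPM in FaDu parental and 220.1 and 179 in ErlR cells, the sole call in FaDu ErlR (-0.61, adjusted p = 0.0380), which was -0.10 (adjusted p = 0.653) under ERCC scaling and was lost without either parental library or without ErlR replicate 2. MCM5 passed in no resistant model.

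Among the 6 genes of helicase activation 2 fell in FaDu AfaR (GINS2 and GINS4) and 4 in Cal27 AfaR (MCM10, CDC45, GINS1 and GINS2), with ranges of 0 to 3 and 1 to 4 when 1 library was left out and 0 in FaDu under ERCC scaling. Of all genes, 7.49% were called lower in FaDu AfaR and 18.2% in Cal27 AfaR. GINS1, a subunit of the GINS complex, is encoded at chromosome 20, 25407727 to 25452628. It had 53.0 and 41.5 CPM in Cal27 parental, 19.2 and 21.7 in AfaR and 32.1 and 35.0 in ErlR cells. The 3 groups did not overlap. GINS1 fell 2.31-fold in Cal27 AfaR (log2 fold change -1.21, standard error 0.164, adjusted p = 0.000527), the largest fall among the 50 genes there, and by 0.52 on the log2 scale in Cal27 ErlR (adjusted p = 0.0394), a call that was lost without parental replicate 1 (-0.32, adjusted p = 0.276) and without either ErlR library. In FaDu it had 71.6 and 78.1 CPM in parental, 60.9 and 57.9 in AfaR and 66.4 and 56.8 in ErlR cells and passed in neither model.

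CDC45, which completes the active helicase, was called lower in one Cal27 model and higher in the other. It had 63.0 and 51.3 CPM in parental cells, 32.9 and 43.1 in AfaR (-0.59, adjusted p = 0.0192) and 89.2 and 88.2 in ErlR (0.61, adjusted p = 0.0220). The AfaR call was lost without parental replicate 1 (adjusted p = 0.137) or AfaR replicate 1 (0.147), and the ErlR call without parental replicate 2 (0.140) or ErlR replicate 1 (0.0782). The AfaR against ErlR difference of CDC45, called in each fit with 1 library left out, was -1.20 (standard error 0.164, adjusted p = 0.000362). GINS3 was called in no resistant model, and GINS4 shares 23.6% of its exon bases with a gene on the opposite strand, so its counts are less certain, as the sources used here do not say whether reads were counted by strand.

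Polymerase and primase genes fell in Cal27 AfaR for 3 of 6 members (PRIM1, POLE and POLE2; from 1 to 4 with 1 library left out) and in FaDu AfaR for 0 of 6. Among all genes, 18.2% were called lower in Cal27 AfaR and 7.49% in FaDu AfaR. PRIM1, the catalytic primase subunit, had 54.5 and 46.3 CPM in Cal27 parental, 18.3 and 29.5 in AfaR and 47.0 and 60.9 in ErlR cells. In FaDu it had 52.6 and 48.9 CPM in parental, 47.2 and 46.4 in AfaR and 63.5 and 52.0 in ErlR cells. PRIM1 fell in Cal27 AfaR (-1.08, standard error 0.227, adjusted p = 0.00528), where its 2 libraries also lay far apart. POLE2, the second subunit of polymerase epsilon, was a low gene with 14.4 and 10.2 CPM in Cal27 parental, 4.54 and 6.96 in AfaR and 17.7 and 19.7 in ErlR cells. Its log2 fold change in Cal27 AfaR was -1.10 (standard error 0.260, adjusted p = 0.00916), and the call was lost without parental replicate 1 (-0.83, adjusted p = 0.0514) or AfaR replicate 1 (-0.82, adjusted p = 0.0819). POLA1, POLA2 and POLD1 were called in no resistant model.

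Of the 7 genes of the sliding clamp, its loader and the lagging strand, 6 fell in Cal27 AfaR (18.2% of all genes). They were PCNA, RFC2, RFC3, RFC5, FEN1 and LIG1. In FaDu AfaR 2 fell (PCNA and RFC3), against 7.49% of all genes. With 1 library left out the count ranged from 1 to 6 in Cal27 AfaR and was 0 in each FaDu AfaR fit, as it was under upper-quartile and ERCC scaling there. PCNA, the clamp that tethers the polymerases, is encoded at chromosome 20, 5114953 to 5126626. It had 260.2 and 236 CPM in Cal27 parental, 107 and 141 in AfaR and 211 and 228 in ErlR cells. In FaDu the values were 258 and 251 CPM in parental, 201 and 200.0 in AfaR and 264 and 231 in ErlR cells. The AfaR libraries were the lowest of each line. On the log2 scale PCNA fell by 1.00 in Cal27 AfaR (standard error 0.154, adjusted p = 0.00100) and in FaDu AfaR by 0.36 (standard error 0.105, adjusted p = 0.0424), a difference between the lines of -0.66 (adjusted p = 0.0286). The FaDu call did not hold with any 1 library left out (adjusted p from 0.0712 to 0.241) or under upper-quartile (0.0883) or ERCC scaling (0.490). RFC4 was called in no resistant model, with log2 fold changes from -0.35 to 0.36.

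The 4 genes of deoxynucleotide synthesis did not move together. TYMS, thymidylate synthase (chromosome 18, 657604 to 673578), had 104 and 84.8 CPM in Cal27 parental, 166 and 224 in AfaR and 109 and 130.0 in ErlR cells. In FaDu it had 129.9 and 117 CPM in parental, 119 and 109.6 in AfaR and 127 and 122 in ErlR cells. Both Cal27 AfaR libraries thus exceeded all 10 others. TYMS rose 2.06-fold in Cal27 AfaR (log2 fold change 1.05, standard error 0.176, adjusted p = 0.00169). ENOSF1, whose exons share bases with 26.2% of the TYMS exons on the opposite strand, was also higher there, with 30.7 and 31.4 CPM in parental and 42.9 and 50.8 in AfaR cells (0.59, adjusted p = 0.00929), and the part of shared reads in the rise was not tested.

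RRM2, the regulated subunit of ribonucleotide reductase, fell in FaDu AfaR from 224 and 189.6 to 144 and 129.7 CPM (-0.62, standard error 0.118, adjusted p = 0.0116) and had 221 and 234 CPM in FaDu ErlR cells. In Cal27 it had 280.0 and 236 CPM in parental, 277 and 379 in AfaR and 419.9 and 365 in ErlR cells. The rise of RRM2 in Cal27 ErlR (0.58, adjusted p = 0.0337) was lost without parental replicate 2 (0.48, adjusted p = 0.181) or without ErlR replicate 1 (0.48, adjusted p = 0.159), and the fall in FaDu AfaR without parental replicate 1 (-0.50, adjusted p = 0.127), without AfaR replicate 2 (-0.54, adjusted p = 0.0567) or under ERCC scaling (-0.44, adjusted p = 0.0640). RRM1, the partner subunit, and TK1, the salvage kinase for thymidine, were called in no resistant model.

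UHRF1 and DNMT1, which copy DNA methylation onto the new strand, fell in both AfaR models. DNMT1 had 314 and 323 CPM in FaDu parental, 237 and 219 in AfaR and 304 and 305 in ErlR cells. In Cal27 it had 299 and 269 CPM in parental, 140.0 and 166 in AfaR and 329.8 and 318 in ErlR cells. The 2 AfaR libraries were the lowest of each line. On the log2 scale DNMT1 fell by 0.50 in FaDu AfaR (standard error 0.0996, adjusted p = 0.0128) and by 0.89 in Cal27 AfaR (standard error 0.135, adjusted p = 0.000934). UHRF1 had 286 and 279.5 CPM in FaDu parental, 226 and 191 in AfaR and 217 and 216 in ErlR cells, and in Cal27 187 and 152, 99.8 and 113, and 229 and 239 CPM in the same order. It fell by 0.46 in FaDu AfaR and by 0.67 in Cal27 AfaR and rose by 0.44 in Cal27 ErlR (adjusted p = 0.0420). The FaDu AfaR calls of DNMT1 and UHRF1 were both lost without either parental library, without AfaR replicate 2 and under ERCC scaling (adjusted p from 0.0507 to 0.152 for DNMT1 and from 0.0980 to 0.237 for UHRF1). UHRF1 also lost its call in Cal27 AfaR without parental replicate 1 (0.0552) or AfaR replicate 1 (0.0520), and in Cal27 ErlR without parental replicate 2, without either ErlR library and under upper-quartile scaling (0.0606). SLBP, which binds the stem-loop of histone messages, was called lower in FaDu AfaR (-0.40, adjusted p = 0.0350), but not with any 1 library left out or under upper-quartile or ERCC scaling, and in no other resistant model.

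**Figure D2:**
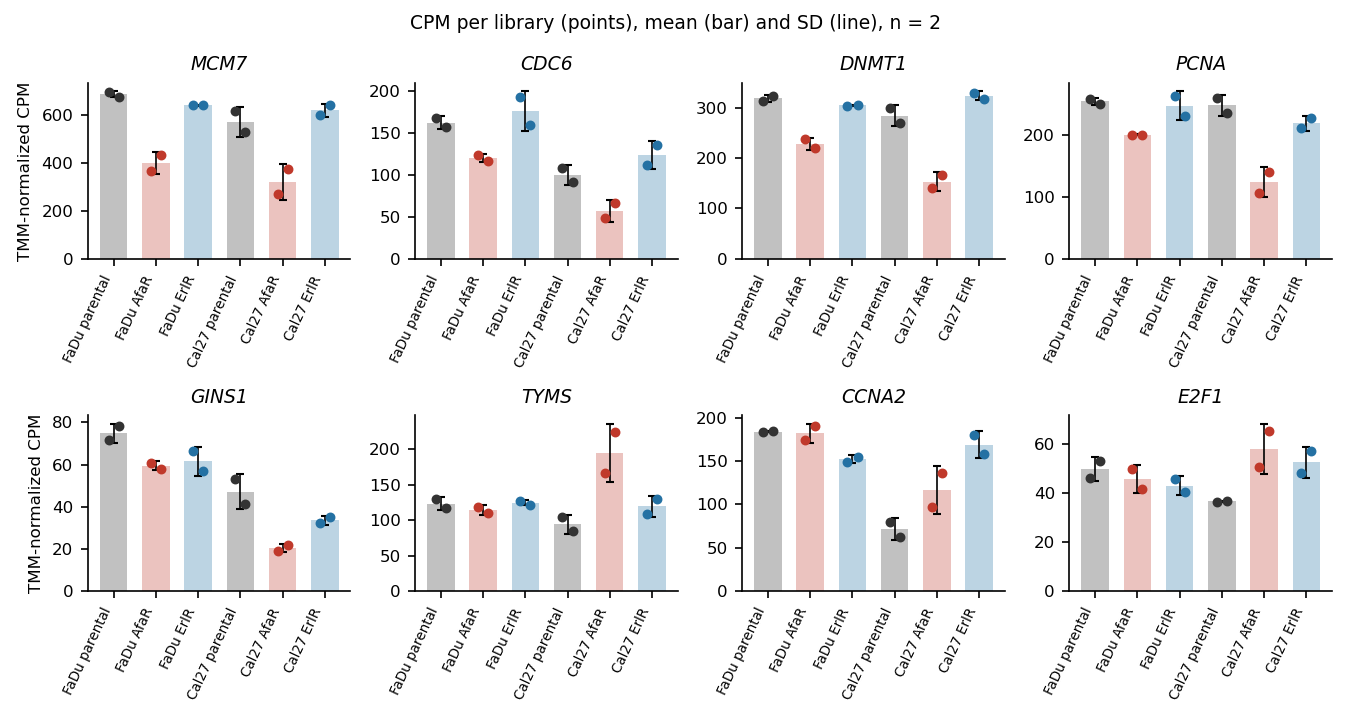
TMM-normalized CPM of 8 genes in the 12 libraries; points are libraries, bars the mean and lines the SD of the 2 libraries of a group. MCM7, CDC6, DNMT1 and PCNA are lowest in the AfaR groups of each line and GINS1 in Cal27 AfaR, whereas TYMS is highest in Cal27 AfaR, where it has 166 and 224 CPM; CCNA2 and E2F1 are higher in both resistant Cal27 groups than in Cal27 parental cells.

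The cyclins, CDC25A and the E2F factors were mixed in Cal27 AfaR. Of these 7 genes 2 rose there (CCNA2 and E2F1; from 0 to 3 with 1 library left out) and 1 fell (CDC25A), while CCNE1 (-0.39) and E2F8 (-0.14) had negative values that did not pass. With 7 genes, 2 called higher and 1 lower in Cal27 AfaR are not far from the 19.5% and 18.2% of all genes. In Cal27 ErlR 4 rose (CCNA2, CDC25A, CCNE2 and E2F1), where 12.3% of all genes were called higher, and 0 fell (15.3%). None of the 7 was called in FaDu AfaR or FaDu ErlR by edgeR. An unadjusted p under 0.05 was found for 1 gene in AfaR (CDC25A, -0.56) and 2 in ErlR cells (CCNE2, 0.62, and CCNA2, -0.28). With ERCC scaling, which called 5747 of all 15092 genes in FaDu ErlR, 3 of the 7 were higher there. CCNA2, cyclin A2 of S phase and G2, had 80.1 and 62.7 CPM in Cal27 parental, 96.9 and 136 in AfaR and 179.6 and 158 in ErlR cells. The 3 groups did not overlap. In FaDu it had 183 and 184 CPM in parental, 174 and 189.7 in AfaR and 149 and 155 in ErlR cells. CCNA2 rose 2.32-fold in the Cal27 ErlR model, by 1.21 on the log2 scale (standard error 0.186, adjusted p = 0.00187), and 1.63-fold in Cal27 AfaR (0.71, standard error 0.185, adjusted p = 0.0147). The AfaR call was lost without parental replicate 2 (0.54, adjusted p = 0.0914) or AfaR replicate 2 (0.46, adjusted p = 0.122).

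E2F1, an activator of the program, had 36.3 and 36.8 CPM in Cal27 parental, 50.6 and 65.2 in AfaR and 48.1 and 57.0 in ErlR cells. Its log2 fold change was 0.66 in AfaR (adjusted p = 0.00985) and 0.50 in ErlR cells (adjusted p = 0.0445). The AfaR value was 0.49 (adjusted p = 0.0745) without AfaR replicate 2, and the ErlR call was lost with any 1 library left out (adjusted p from 0.0568 to 0.163) and under upper-quartile scaling (0.0691). In FaDu E2F1 had 46.2 and 53.2 CPM in parental, 49.8 and 41.5 in AfaR and 45.6 and 40.3 in ErlR cells, so that the AfaR libraries overlapped the parental ones and the ErlR libraries lay just below them, and neither difference passed.

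CDC25A, the phosphatase that activates CDK2, had 32.0 and 23.5 CPM in Cal27 parental, 15.9 and 21.1 in AfaR and 55.3 and 52.5 in ErlR cells. It rose in ErlR (0.93, standard error 0.190, adjusted p = 0.00682) and fell in AfaR cells (-0.58, standard error 0.193, adjusted p = 0.0399), and the groups did not overlap. The fall was lost without parental replicate 1 (-0.34, adjusted p = 0.286) or AfaR replicate 1 (-0.39, adjusted p = 0.250). CCNE2, 1 of the 2 E cyclins, had 12.5 and 8.46 CPM in Cal27 parental and 17.7 and 17.5 in ErlR cells (0.73, adjusted p = 0.0315), and shares 37.1% of its exon bases with INTS8 on the opposite strand. The rise of CCNE2 was lost without parental replicate 2 (0.49, adjusted p = 0.191) and without either ErlR library. INTS8 was not called in Cal27 ErlR (0.43, adjusted p = 0.0532). CCNE2 had 14.4 and 16.0 CPM in Cal27 AfaR cells, and in FaDu 9.90 and 9.93 CPM in parental, 9.46 and 10.0 in AfaR and 16.5 and 14.3 in ErlR cells, so that both resistant Cal27 groups and FaDu ErlR lay above their parental libraries. CCNE1, the other E cyclin, had 9.52 and 8.06 CPM in FaDu parental, 7.67 and 3.70 in AfaR and 5.37 and 8.37 in ErlR cells. In Cal27 it had 11.7 and 10.7 CPM in parental, 7.67 and 9.46 in AfaR and 16.1 and 12.4 in ErlR cells, and it was called in no resistant model. E2F2 and E2F8, an activator and a repressor of the family, were called in none either.

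Of the 6 checkpoint and repair genes, BRCA1 and CLSPN fell in FaDu AfaR (-0.39 and -0.40), where 7.49% of all genes were called lower. CHEK1 fell in Cal27 AfaR (-0.56, adjusted p = 0.0270), where 1 of 6 is no larger a share than that of all genes. The calls of BRCA1 and CLSPN held in 1 of the 4 fits with 1 library left out, the one without AfaR replicate 1, and were lost under upper-quartile and ERCC scaling. The CHEK1 call held only in the fit without parental replicate 2 (adjusted p of the other 3 from 0.0715 to 0.220). CHEK1, the kinase of the replication checkpoint, had 33.7 and 26.1 CPM in Cal27 parental, 19.1 and 21.4 in AfaR and 35.5 and 39.3 in ErlR cells. BRCA2, EXO1 and DTL were called in no resistant model.

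The AfaR models of the lines were raised from different parental cells and share no library. Among all genes 7.49% were called lower in FaDu AfaR and 18.2% in Cal27 AfaR, and the share called lower in both was not counted. Of the 16 genes lower in FaDu AfaR, 11 (68.8%) were also lower in Cal27 AfaR, which is 45.8% of the 24 lower there: ORC1, ORC6, CDC6, MCM4, MCM6, MCM7, GINS2, PCNA, RFC3, UHRF1 and DNMT1. The number of shared genes was 2 without FaDu parental replicate 1 (MCM6 and MCM7), 3 without Cal27 AfaR replicate 1 (MCM7, PCNA and DNMT1), 4 without Cal27 parental replicate 1 and 3 with FaDu scaled to ERCC spike-ins. MCM7 was in each of these sets. A negative log2 fold change in both models was found for 40 of the 50 genes and for 32.8% of the 13995 genes tested in both lines. Over the 50 genes the log2 fold changes of the models had a Pearson r of 0.34 and a Spearman rho of 0.42, against an r of 0.32 over all genes tested in both.

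**Figure D3:**
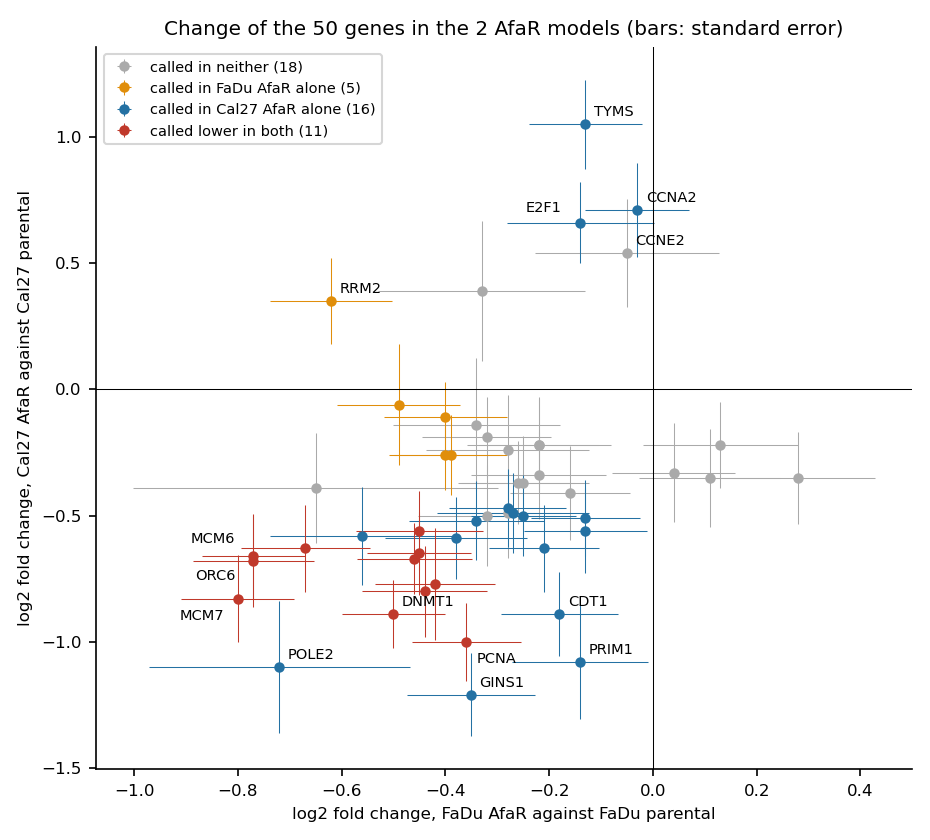
Log2 fold change of the 50 genes in FaDu AfaR (horizontal) and Cal27 AfaR (vertical) against the parental cells of the line; points are genes, bars the standard error, and color the call. The points sit mostly in the lower left part, with 11 genes called lower in both models, while TYMS (1.05), CCNA2 (0.71) and E2F1 (0.66) stand high on the Cal27 axis near 0 on the FaDu axis.

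The resistant models of a line were also compared with each other. In Cal27, 30 of the 50 genes were lower and 2 higher in AfaR than in ErlR cells (23.2% and 26.5% of all genes), with a median log2 fold change of -0.69 and 7 genes lower by more than 1 on the log2 scale (8.86% of all genes) and 0 higher by as much (18.2%). POLE2 (-1.68, standard error 0.260, adjusted p = 0.000708) and CDC25A (-1.52, standard error 0.194, adjusted p = 0.000243) differed most. E2F2 (0.96) and TYMS (0.73) were the 2 genes higher in AfaR, and both calls were lost without AfaR replicate 2 (adjusted p = 0.134 and 0.0629) and without ErlR replicate 1 (0.104 and 0.0530). E2F2 was a low gene, with 6.70 and 9.75 CPM in AfaR and 3.64 and 4.95 in ErlR cells. Of the 30 genes 16 were lower in each fit that left out 1 library.

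In FaDu, 12 genes were lower and 1 higher in AfaR than in ErlR cells (7.65% and 8.06% of all genes), with a median of -0.16. ORC6 (-0.78, standard error 0.117, adjusted p = 0.00473) and RRM2 (-0.74, standard error 0.119, adjusted p = 0.00578) differed most, and POLD1, the catalytic subunit of polymerase delta, was higher in AfaR with 121 and 148 against 99.5 and 83.0 CPM (0.55, adjusted p = 0.0283). Under ERCC scaling, which lowered the median of all genes by 0.29 here, 26 genes were lower and 0 higher. Of all 15092 genes, 4259 were called in either direction under that scaling.

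The effect of afatinib resistance differed between the lines for 8 of the 50 genes in the fit of all 12 libraries, 4 with a lower value in Cal27 (CDT1, GINS1, PRIM1 and PCNA) and 4 with a higher one (RRM2, TYMS, CCNA2 and E2F1), against 10.5% and 8.00% of all genes, so that differences were no more frequent among the 50 than among all genes. TYMS differed most, by 1.15 (standard error 0.219, adjusted p = 0.00333), and was called in each fit with 1 library left out. The effect of erlotinib resistance was higher in Cal27 for 5 genes (GMNN, MCM10, UHRF1, CCNA2 and E2F1) and lower for 0, against 8.80% and 9.80% of all genes, again no larger a share in all. Under ERCC scaling this count turned to 1 higher and 2 lower, as the median of all genes moved by -0.49. CCNA2 kept its direction and its call there (1.05, adjusted p = 0.00563).

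Parental Cal27 cells had less of most replication messages than parental FaDu cells relative to the rest of the transcriptome. In Cal27, 28 of the 50 genes were lower and 2 higher (26.8% and 28.7% of all genes), with a median log2 difference of -0.51 and 10 genes lower by more than 1 (12.5% of all genes) and 0 higher by as much (19.1%). This direction depended on the scaling. ERCC scaling moved the median of all genes by 0.62 and called 9631 of all 16240 genes in either direction. Of the 50 genes 9 were then lower and 16 higher, and their median was 0.07. Relative to the median of all genes it was -0.55 under both scalings. A change of scaling moves all genes by nearly the same amount, so this agreement is no check on the direction. Per kilobase of exon, the level of the 50 genes ranged from 2.26 CPM (CCNE2) to 372 CPM (TK1) in FaDu parental cells and from 1.15 (E2F2) to 169 CPM (PCNA) in Cal27 parental cells, with medians of 21.1 and 18.5 CPM.

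GINS4, a GINS subunit, differed most, with 63.6 and 61.7 CPM in FaDu parental and 17.6 and 12.5 in Cal27 parental cells (log2 difference -2.06, standard error 0.194, adjusted p = 2.78e-06). E2F2 had 20.2 and 20.8 CPM in FaDu and 6.06 and 6.48 in Cal27 (-1.71, adjusted p = 7.73e-05). TK1 had 630.3 and 756 CPM in FaDu and 242 and 189 in Cal27 (-1.69, adjusted p = 8.5e-06). In these genes the lines were separated by far more than the spread of their libraries. CHEK1 had 90.2 and 79.7 against 33.7 and 26.1 CPM (-1.51), and ORC1 had 96.5 and 81.2 against 33.0 and 30.1 CPM (-1.49). These 5 genes stayed lower in Cal27 under ERCC scaling, with log2 differences from -1.48 to -0.91.

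The 2 genes higher in Cal27 parental cells were POLA2, the accessory subunit of polymerase alpha, with 33.9 and 36.8 CPM in FaDu and 72.2 and 67.6 in Cal27 (0.98, adjusted p = 0.00168), and MCM5 with 137 and 179 against 295 and 247 CPM (0.78, adjusted p = 0.00341). MCM5 thus went against its partners MCM2, MCM4 and MCM6, which were lower in Cal27 by 0.80, 1.27 and 0.55 on the log2 scale. Under ERCC scaling MCM4 kept its call (-0.69), MCM2 lost it (-0.22, adjusted p = 0.300) and MCM6 lost both its call and its direction (0.03, adjusted p = 0.890). For MCM5, the value without FaDu parental replicate 1 was 0.59 (adjusted p = 0.0521). PCNA (-0.04), RRM2 (0.32), CCNE1 (0.35) and CCNE2 (0.08) did not pass, but the values of all 4 were from 0.54 to 0.93 and passed under ERCC scaling.

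**Figure D4:**
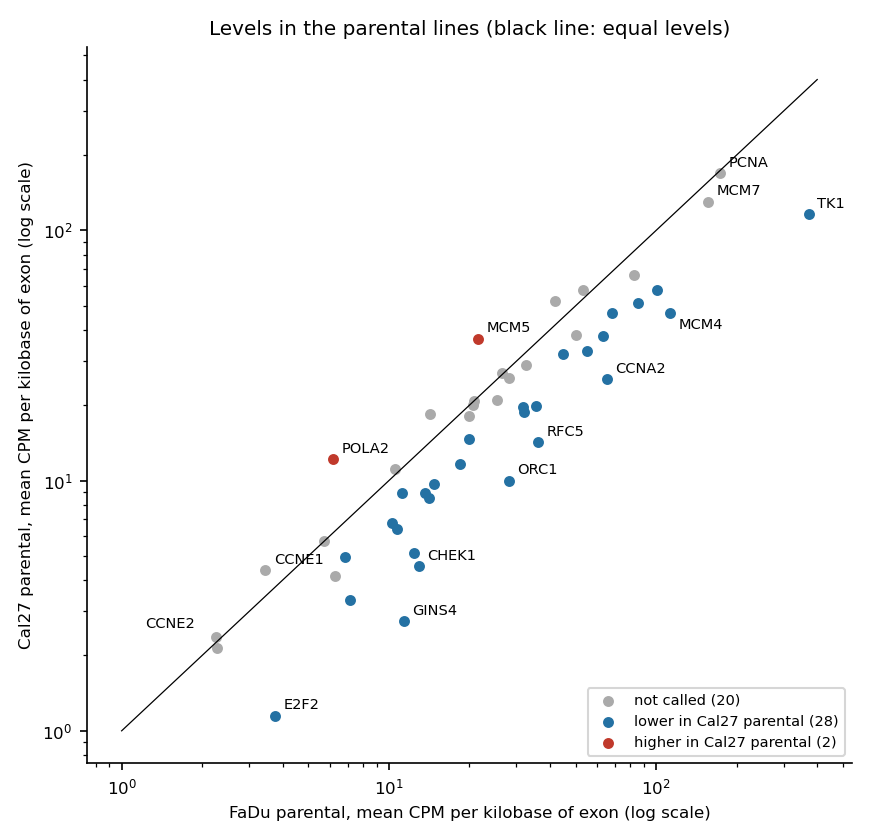
Mean CPM per kilobase of exon of the 50 genes in FaDu parental (horizontal) and Cal27 parental cells (vertical), both on log scales; each point is a gene and color gives the call. The 28 genes lower in Cal27 lie below the line of equal levels, with GINS4, E2F2 and TK1 far from it, and POLA2 and MCM5 lie above it.

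Other genes of replication, 48 in number and chosen by role, also had more members lower than higher in the AfaR models. In FaDu AfaR 9 were lower (7.49% of all genes) and 1 higher (10.4%), with a median of -0.22, but 0 were called lower without parental replicate 1, parental replicate 2 or AfaR replicate 2, and under ERCC scaling the counts were 2 and 2. In Cal27 AfaR 17 were lower (18.2% of all genes) and 2 higher (19.5%), with a median of -0.29, and 7 were lower without AfaR replicate 1 and 8 without parental replicate 1. Cal27 ErlR had 3 lower and 5 higher, with a median of 0.08, both smaller shares than the 15.3% and 12.3% of all genes. FaDu ErlR had 0 lower (1.60% of all genes) and 1 higher (2.58%), with a median of -0.05. Under ERCC scaling, which called 5747 of all 15092 genes, 27 of the 48 were higher and their median was 0.44. In Cal27 AfaR CHAF1B, a subunit of the chromatin assembly factor that follows the fork, fell from 69.0 and 60.1 to 25.9 and 34.8 CPM (-1.09, adjusted p = 0.00150), and TIPIN of the fork protection complex from 23.6 and 19.3 to 10.4 and 11.3 CPM (-0.99, adjusted p = 0.00209). POLD4, the small subunit of polymerase delta, was the gene that rose in FaDu AfaR, from 9.42 and 8.58 to 17.3 and 20.4 CPM (1.05, adjusted p = 0.0237), a call lost without parental replicate 1, parental replicate 2 or AfaR replicate 2. In Cal27 ErlR FANCD2 of the crosslink repair pathway rose from 40.3 and 29.8 to 64.2 and 72.9 CPM (0.94, adjusted p = 0.00615), and RPA1, the large subunit of the single-strand binding protein, fell from 213 and 195 to 117 and 138 CPM (-0.70, adjusted p = 0.00762).

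Genes of G2 and mitosis (20, among them MKI67, CCNB1 and TOP2A) did not fall with the replication genes in Cal27 AfaR. There 3 rose (CENPF, KIF11 and TOP2A) and 0 fell, where 19.5% of all genes were called higher and 18.2% lower, and the median log2 fold change was 0.24, beside -0.48 for the replication genes. Without AfaR replicate 2 the median of the G2/M genes was -0.01 and 1 of them was higher, and without AfaR replicate 1 it was 0.35 and 5 were higher. In Cal27 ErlR 11 rose (12.3% of all genes) and 0 fell (15.3%), with a median of 0.45, and 6 rose without parental replicate 2 or without ErlR replicate 1. In FaDu AfaR 0 rose (10.4% of all genes) and 5 fell (7.49%), with a median of -0.26 and with 0 called without parental replicate 1 and 1 under ERCC scaling. FaDu ErlR had 2 lower (1.60%) and 0 higher (2.58%) and a median of -0.37. Under ERCC scaling, which called 5747 of all 15092 genes, 5 of the 20 were higher and their median was 0.11. The 2 lists diverged in both Cal27 AfaR libraries: the median difference from the parental mean was -0.67 for the replication genes and -0.02 for the G2/M genes in replicate 1, and -0.24 and 0.35 in replicate 2.

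**Figure D5:**
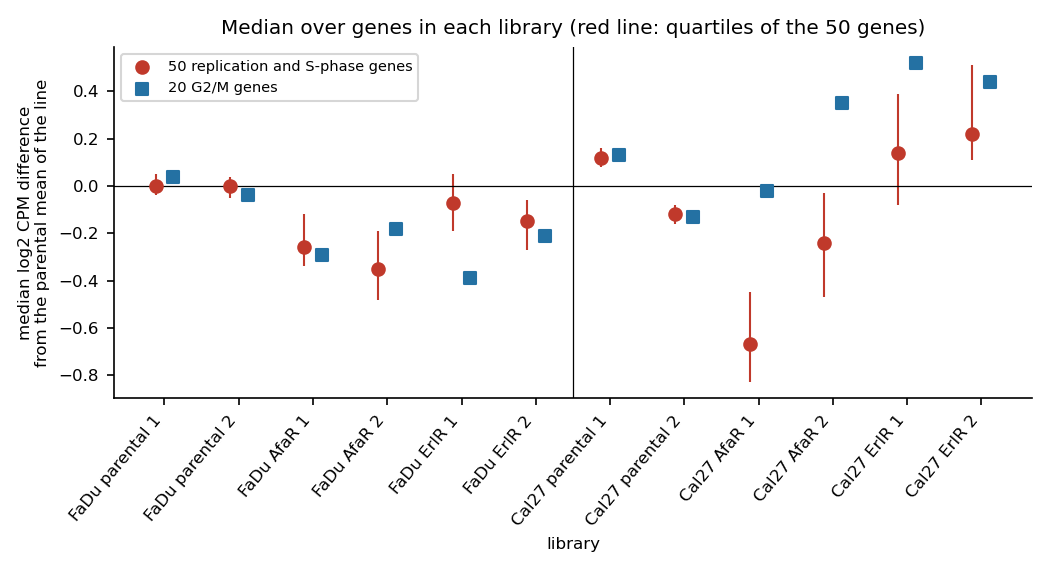
Median over genes, in each library, of the log2 CPM difference from the parental mean of the line, for the 50 replication and S-phase genes (red circles, line for the quartiles) and for 20 G2/M genes (blue squares). Circles and squares lie near each other in the FaDu AfaR libraries, at -0.26 and -0.29 in replicate 1, and apart in the Cal27 AfaR libraries, at -0.67 and -0.02 in replicate 1.

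Markers of cell identity also differed between the Cal27 models. In Cal27 AfaR the 8 squamous markers summed to 880.5 and 979 CPM against 3887 and 5022 in the 2 parental libraries. Of these, 7 of 8 were called lower (18.2% of all genes). The 7 mesenchymal markers (VIM, CDH2, FN1 and others) summed to 1963 and 1990 CPM in Cal27 AfaR against 396 and 437 in parental cells. Of these, 5 were called higher (19.5% of all genes). VIM made up most of the rise in the sum, from 23.0 and 21.8 to 1123 and 1269 CPM. FN1 overlapped between the groups, with 288 and 321 CPM in parental and 356 and 235 in AfaR cells. In FaDu AfaR the squamous sum ranged from 6521 to 12941 CPM against 6433 to 10761 in parental cells. There 1 marker was called in each direction, against 7.49% of all genes lower and 10.4% higher. The mesenchymal sum was 99.2 and 101 against 53.9 and 58.0 CPM, with 2 of the 5 markers tested called higher. In Cal27 ErlR the mesenchymal sum was 127 and 155 CPM, with 5 of 7 markers called lower than in parental cells (15.3% of all genes). The squamous sum there ranged from 4917 to 4950 CPM, with 3 markers lower and 1 higher (12.3% of all genes). Their part in the differences of the replication and G2/M genes was not tested.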

How the data were processed

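Poly(A) RNA of FaDu and Cal27 cells with ERCC spike-ins was sequenced. Per the labels, the authors trimmed reads with Trimmomatic 0.36, aligned them to GRCh38 with STAR 2.5.2b and counted reads per Ensembl gene with featureCounts of Subread 1.5.2. The strand setting and annotation release were not given in the sources used here. The deposited values used were these raw counts. The deposited normalized tables were not used, and no column lacked a sample.

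Symbols were matched for 56948 of 58051 gene IDs. ERCC rows were kept out of library sizes and took from 3.859 to 5.824% of counts. Within each line the 6 libraries were fitted together in edgeR 4.0.16 (R 4.3.3) with filterByExpr, TMM factors and the quasi-likelihood test, on 15092 genes in FaDu and 15269 in Cal27 with 3 residual degrees of freedom. The parental lines, and the difference of an effect between lines, came from 1 fit of all 12 libraries on 16240 genes. Genes were called at a Benjamini-Hochberg adjusted p under 0.05 over all genes tested. Standard errors were taken from the fold change and its F statistic. The libraries of a group are labelled biological replicates and differed beyond sampling noise. P-values measure the spread between these replicates only, and whether a model was selected more than once is not given in the sources used here.

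Values in every library are given for the called genes with the largest changes (3 per direction in the resistant models, 5 between parental lines, 2 in the other comparisons) and for MCM2, CDC6, PCNA, RRM2, CCNE1, CCNE2 and E2F1. Other genes were named to account for each role, after their values were seen. The genes and lists were chosen with earlier results of these data known. Alternatives were an unadjusted p, DESeq2 1.42.0, no filter on low counts, upper-quartile scaling, scaling to ERCC counts, only the 4 libraries compared, a replicate block and leaving out each library. A crossed replicate block was added after seeing the data.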

Additional observations from a re-analysis of the deposited data

Results flagged for a closer look

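The effect of afatinib resistance differed between the lines for 8 of the 50 genes, by the test of the difference in the fit of all 12 libraries (edgeR's quasi-likelihood test, Benjamini-Hochberg adjusted), where 8.00% of all genes were called higher and 10.5% lower, so the share was no larger among the 50. PRIM1 differed by -0.96 on the log2 scale (adjusted p = 0.0342), from -0.14 in FaDu to -1.08 in Cal27. GINS1 differed by -0.88 (adjusted p = 0.0101), from -0.35 to -1.21. TYMS differed by 1.15 (adjusted p = 0.00333), from -0.13 to 1.05, and was the 1 gene of the 8 called in each fit with 1 library left out. RRM2 differed by 0.95 (adjusted p = 0.0107), as it fell by 0.62 in FaDu and had a value of 0.35 in Cal27 that did not pass.

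The effect of erlotinib resistance differed for 5 genes, all higher in Cal27, against 8.80% of all genes higher and 9.80% lower, and under ERCC scaling for 3 (1 higher and 2 lower). CCNA2 differed by 1.51 (adjusted p = 0.00127), from -0.28 in FaDu to 1.21 in Cal27, and UHRF1 by 0.85 (adjusted p = 0.00670), from -0.40 to 0.44. Both were called in each fit with 1 library left out, and UHRF1 was at 0.38 (adjusted p = 0.180) under ERCC scaling.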

How the results depend on the processing

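With 2 libraries a group the counts of called genes depended on single libraries and on the scaling, and the cause was not tested. An unadjusted p gave 27 genes in the AfaR and 11 in the ErlR model of FaDu, 16 in Cal27 ErlR, 22 between the FaDu resistant models and 13 for the erlotinib effect between lines. ERCC scaling gave 3, 17 (all higher) and 26 in FaDu AfaR, FaDu ErlR and between the FaDu models. It gave 25 between the parental lines (16 higher) and 3 for the erlotinib effect between lines (2 lower). Over all genes it called 5747 and 4259 of 15092 in FaDu ErlR and between the FaDu models, and 9631 of 16240 between the parental lines. Upper-quartile scaling gave 9 in FaDu AfaR. In FaDu ErlR, DESeq2 gave 4 genes, no filter on low counts 5, only the 4 libraries compared 2, the replicate block 0 and the crossed replicate block 4. Only the 4 libraries compared gave 7 between the FaDu models, and no filter gave 9 for the erlotinib effect between lines.

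Replicate numbers did not pair the libraries: the correlation of same-numbered deviations ranged from -0.32 to 0.21 over 10572 genes. With the replicate block the counts were 14 and 0 in the AfaR and ErlR models of FaDu, 26 and 7 in those of Cal27, 12 and 31 between the resistant models of FaDu and Cal27, 30 between the parental lines and 7 and 5 for the afatinib and erlotinib effects between lines. The crossed block gave 14 between the FaDu models and 30 in Cal27 AfaR.

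With 1 library left out the counts ranged from 2 to 16 and 0 to 1 in the AfaR and ErlR models of FaDu, 9 to 30 and 2 to 7 in those of Cal27, 5 to 14 and 18 to 35 between the resistant models of FaDu and Cal27, 24 to 30 between the parental lines, 2 to 9 for the afatinib and 2 to 5 for the erlotinib effect between lines.

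Directions turned as follows. Under ERCC scaling the median of the 50 genes was 0.37 in FaDu ErlR, 0.07 between the parental lines and -0.20 for the erlotinib effect between lines, and without Cal27 AfaR replicate 1 it was 0.03 for the afatinib effect (range with 1 library left out -0.38 to 0.03). Under ERCC scaling MCM2, CCNE2 and E2F1 were at 0.02, 0.14 and 0.04 in FaDu AfaR, and CCNE2 at 0.03 under upper-quartile scaling. In FaDu ErlR, ERCC scaling put MCM2 at 0.27, PCNA at 0.44, CCNE1 at 0.10 and E2F1 at 0.27. CDC6 was at -0.04 without FaDu ErlR replicate 1 and 0.24 without replicate 2, and PCNA at -0.15 and 0.04. MCM2 in Cal27 ErlR was at 0.06 without parental replicate 1 and 0.09 and -0.12 without ErlR replicates 1 and 2. Between the parental lines PCNA was at 0.54 and E2F1 at 0.14 under ERCC scaling, and without Cal27 parental replicates 1 and 2 PCNA was at -0.11 and 0.03 and CCNE2 at -0.23 and 0.33. The lowest count of any of the 50 genes in a library was 57.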
